A study of Mus musculus with 33 samples.

Results

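*H19* and *Igf2* are a pair of oppositely imprinted genes that share one locus on mouse chromosome 7. They were picked by name, as 2 of the 55487 genes listed in the deposited tables of a study of the heterochromatin protein 1 (HP1) family in mouse embryonic stem cells (ESCs), and they were picked with part of their pattern known: *H19* had been seen to be higher in *Hp1β*, *Hp1α/β* and *Hp1α/γ* mutants. The levels of *H19* in the *Hp1* mutants, and of *Igf2* in those 3 mutants, are therefore given as a description without a test. *Igf2* in the other mutants and both genes after loss of *Setdb1* were tested. In the *Hp1* mutants these tests share control libraries with the comparisons behind the choice.

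RNA was sequenced from C57BL/6 ESCs in 11 conditions with 3 libraries each. *Hp1α* Δ/Δ, *Hp1β* Δ/Δ, *Hp1γ* Δ/Δ and *Hp1α/β* Δ/Δ cells and the triple mutant were deposited beside one set of wild-type libraries (set A, titled NK), and the *Hp1α/γ* and *Hp1β/γ* double mutants beside another (set B, titled WT). The mutants were clones made with Cas9. The triple mutant was derived by Cre from *Hp1α/β*-null cells with loxP-flanked *Hp1γ* and is deposited beside set A, which is labelled wild type. By the study's text its RNA was taken a few days after Cre transfection, when apoptosis and cell-cycle arrest were seen. The single and double mutants were constitutive knockouts. The study's text names floxed *Hp1α/β*-null cells given a control vector as the counterpart of the triple mutant. Set A did not show the transcript levels of *Hp1α/β*-null cells. *Cbx1* (HP1β) stood at 430 to 448 CPM (counts relative to library size) in set A, 373 to 409 in set B and 94.7 to 97.5 in *Hp1α/β* Δ/Δ cells. *Cbx5* (HP1α) stood at 479 to 490, 439 to 476 and 199 to 208 CPM in these. Differences of the triple mutant from set A are thus differences from libraries labelled wild type, not from *Hp1α/β*-null cells. *Setdb1* KO cells, in which Cre removed exons of the H3K9 methyltransferase gene *Setdb1*, were compared with their floxed parent line (*Setdb1* F/F). All cells were grown on mouse embryonic fibroblast feeders, which were reduced by a short adherence step before RNA was taken. The libraries of a group are separate samples by their labels, and where they came from the same clone the p-values cover only the spread between them.

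*H19* is a long non-coding RNA made from the maternal chromosome, and *Igf2* encodes insulin-like growth factor 2, a fetal growth factor made from the paternal chromosome. A control region between them carries DNA methylation on the paternal copy only. On the unmethylated maternal copy it binds CTCF, which keeps enhancers beyond *H19* from reaching *Igf2*, so that in most embryonic tissues each chromosome uses one gene or the other. HP1 proteins read methylated histone H3 lysine 9, the mark that SETDB1 places. The cells were inbred and the counts were summed per gene, so the parental copies were not told apart.

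On GRCm38 (GENCODE M21), *H19* (ENSMUSG00000000031, lincRNA) lies on the minus strand at chr7:142575529-142578143, and *Igf2* (ENSMUSG00000048583, protein coding) on the same strand at chr7:142650766-142666816. Their outermost start sites are 88.7 kb apart. Each gene hosts a microRNA, and all 84 bases of the *Mir675* hairpin lie in *H19* exons while the *Mir483* hairpin lies in an intron of *Igf2*. The mature forms are shown because they are the short RNA products that the locus encodes, with the seed (bases 2 to 8) in capitals, as RefSeq gives them on GRCm38.p6.
mmu-miR-675-5p: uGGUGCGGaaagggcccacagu
mmu-miR-675-3p: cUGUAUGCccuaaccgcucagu
mmu-miR-483-5p: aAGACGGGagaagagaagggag
mmu-miR-483-3p: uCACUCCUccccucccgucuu
None of the 4 seeds is shared with another of the 1679 mature mouse microRNAs in the RefSeq table. *Mir675* and *Mir483* were at 0 in 33 of 33 libraries, which were not made for short RNAs, so the microRNAs were not measured here.

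RefSeq lists 4 start sites for *Igf2*. The 250 bases before the start site nearest to *H19* (chr7:142657497-142657746, minus strand, GRCm38.p6), a stretch outside the annotated exons of *Igf2* and its overlapping genes, are shown as the *Igf2* promoter closest to the control region and to *H19*.
Igf2 proximal promoter: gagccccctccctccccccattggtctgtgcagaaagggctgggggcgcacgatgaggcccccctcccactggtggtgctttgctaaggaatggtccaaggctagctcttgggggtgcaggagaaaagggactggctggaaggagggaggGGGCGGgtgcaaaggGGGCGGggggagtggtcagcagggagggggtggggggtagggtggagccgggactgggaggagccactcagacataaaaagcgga
The capitals mark 2 GC boxes, GGGCGG on either strand, a sequence found in 32.7% of 32851 RefSeq promoter windows of the same length. The window holds no TATAAA on either strand, and 12.4% of all windows hold one. The most distal of the 4 windows, 142666817 to 142667066, holds neither. The counts are per gene and do not say which of these start sites was used.

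*H19* was barely detected in wild-type cells. The 3 libraries of set A held 9, 6 and 7 *H19* reads, or 0.416, 0.278 and 0.339 CPM (counts relative to library size, scaled jointly over all libraries), and those of set B held 14, 5 and 16 reads, or 0.691, 0.224 and 0.732 CPM. The 2 wild-type sets overlapped, and in a comparison of these sets *H19* did not pass the filter on low counts, so it entered each fit through the mutant libraries. Against this floor, *H19* was higher in every library of every *Hp1* mutant.

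Among the single mutants *H19* was highest without *Hp1β*. Loss of *Hp1β* gave 9.03, 8.66 and 6.60 CPM, a log2 fold change of 4.51 (SE 0.25), or 22.8-fold. Loss of *Hp1γ* gave 3.28, 2.56 and 3.33 CPM, a log2 fold change of 3.12 (SE 0.34). Loss of *Hp1α* gave 2.13, 1.81 and 1.72 CPM, a log2 fold change of 2.43 (SE 0.38). The 3 single mutants did not overlap one another, and the order of *H19* was β over γ over α.

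The double mutants without *Hp1β* stood highest of all conditions. In *Hp1β/γ* Δ/Δ cells *H19* reached 49.3, 52.4 and 50.8 CPM, a log2 fold change of 6.54 (SE 0.15), or 92.8-fold over set B. In *Hp1α/β* Δ/Δ cells it reached 27.3, 28.4 and 28.7 CPM, a log2 fold change of 6.33 (SE 0.16), or 80.3-fold over set A. In *Hp1α/γ* Δ/Δ cells, which keep *Hp1β*, it reached 10.3, 13.5 and 10.2 CPM, a log2 fold change of 4.32 (SE 0.34). Both double mutants without *Hp1β* exceeded every single mutant by a wide margin, and *Hp1α/γ* Δ/Δ exceeded *Hp1β* Δ/Δ by a narrow one.

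*H19* was not highest in the triple mutant. The triple mutant held 13.04, 13.4 and 11.8 CPM, a log2 fold change over set A of 5.22 (SE 0.21). This was below each *Hp1α/β* Δ/Δ library, with a log2 difference of -1.12 (SE 0.08). The triple mutant differs from these libraries in loss of *Hp1γ*, in Cre treatment and in its floxed line, which cannot be told apart. The triple mutant overlapped *Hp1α/γ* Δ/Δ and no other condition. The share of all tested genes whose 3 mutant libraries all lay above the 3 control libraries was 26.8% for *Hp1α* Δ/Δ, 29.9% for *Hp1β* Δ/Δ, 27.3% for *Hp1γ* Δ/Δ, 26.1% for *Hp1α/β* Δ/Δ, 30.6% for *Hp1α/γ* Δ/Δ, 29.4% for *Hp1β/γ* Δ/Δ and 41.4% for the triple mutant. Separation from the control was thus common among all genes.

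**Figure D1:**
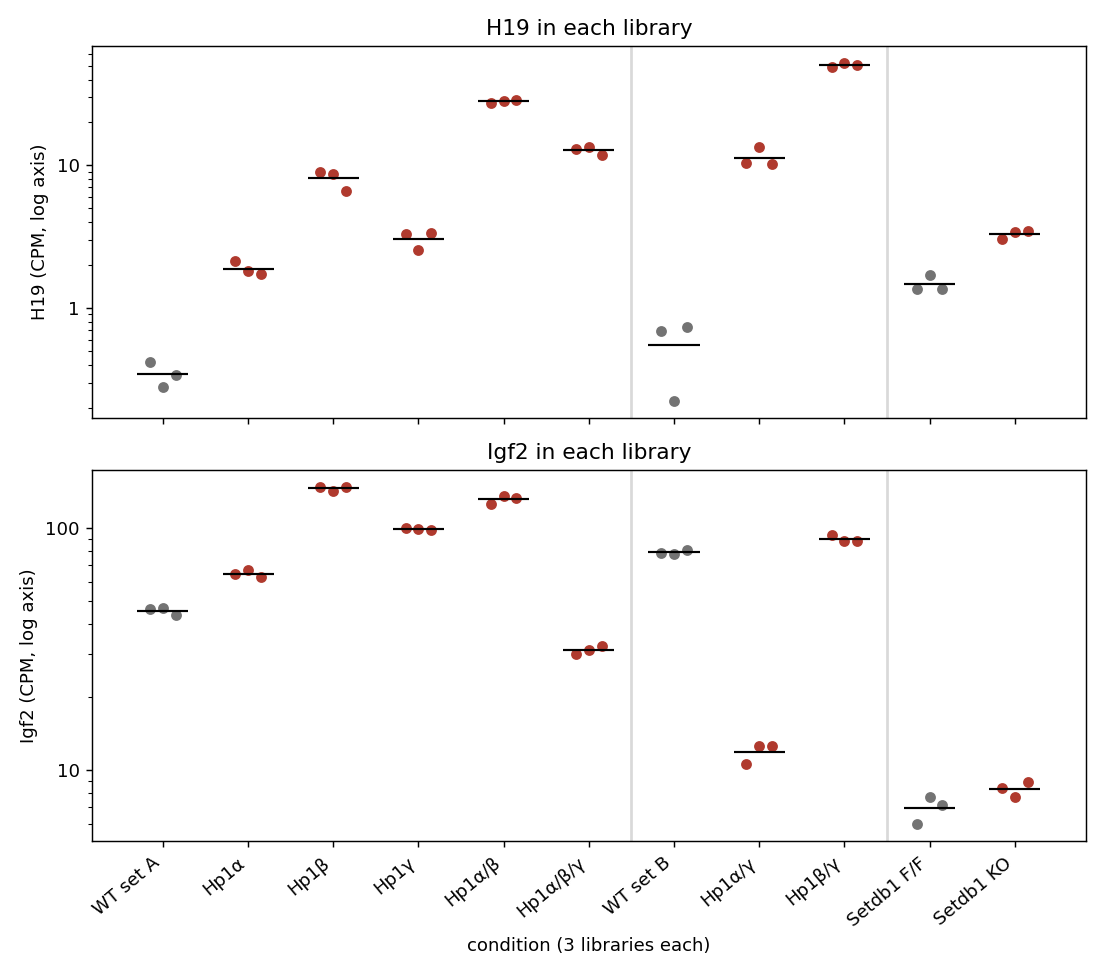
*H19* (top) and *Igf2* (bottom) in CPM on log axes, for 3 libraries (points) and their mean (line) in each of 11 conditions, with controls in grey, mutants in red and vertical lines between the 3 control sets. *H19* runs from 0.224 CPM in a wild-type library to 52.4 CPM in an *Hp1β/γ* Δ/Δ library, and *Igf2* falls below its control set in *Hp1α/γ* Δ/Δ and in the triple mutant only.

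*Igf2*, unlike *H19*, was well expressed in wild-type ESCs, and the sets differed. Set A held 46.2, 46.5 and 43.8 CPM and set B 78.6, 77.7 and 81.2 CPM, a log2 difference of 0.80 (SE 0.05) between cells with the same label. The difference between the control sets was larger than the spread within either, so each mutant is read against its own set and the other set is named where it changes the result.

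*Igf2* was highest in *Hp1β* Δ/Δ and *Hp1α/β* Δ/Δ cells, though not in the other mutants without *Hp1β*. *Hp1β* Δ/Δ cells held 147, 142 and 148 CPM, a log2 fold change of 1.66 (SE 0.05), and *Hp1α/β* Δ/Δ cells held 126, 135 and 133 CPM, a log2 fold change of 1.53 (SE 0.05). These are 3.16-fold and 2.89-fold over set A, given without a test. Against set B the same differences were 0.87 and 0.73.

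In *Hp1γ* Δ/Δ cells *Igf2* rose to 100.1, 99.2 and 98.4 CPM, a log2 fold change of 1.12 (SE 0.04, edgeR quasi-likelihood adjusted p = 1.73e-13), and was among the 2.04% of 15823 tested genes called higher there. A gene was called where the adjusted p was under 0.05 and the log2 fold change over 1 in size. The call was lost against set B, where the log2 fold change was 0.33. In *Hp1α* Δ/Δ cells *Igf2* held 64.6, 67.0 and 62.6 CPM, all above set A, with a log2 fold change of 0.51 (SE 0.05, edgeR adjusted p = 4.17e-08) that did not reach the fold threshold. Against set B its sign turned, to -0.29.

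*Hp1β/γ* Δ/Δ cells, with the highest *H19*, had an *Igf2* level close to that of set B and well above set A. They held 93.6, 88.4 and 88.0 CPM, a log2 fold change over set B of 0.19 (SE 0.05, edgeR adjusted p = 0.00418), which was not called although the libraries did not overlap. Against set A the log2 fold change was 0.99 (SE 0.04, edgeR adjusted p = 9.37e-13), just under the fold threshold. *Hp1α/γ* Δ/Δ cells went the other way, with 10.6, 12.6 and 12.5 CPM, a log2 fold change of -2.78 (SE 0.11), or 0.146 of the set B level, given without a test. All 3 lay below set B, as did 32.5% of all tested genes. Against set A the log2 fold change was -1.97.

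The triple mutant held 30.2, 31.3 and 32.6 CPM of *Igf2*, below all libraries of set A, with a log2 fold change of -0.50 (SE 0.06, edgeR adjusted p = 1.20e-07) that was not called. Of all tested genes 41.7% had the triple mutant below all 3 libraries of set A. Against set B the *Igf2* difference was called, at -1.29. Against *Hp1α/β* Δ/Δ cells *Igf2* had a log2 difference of -2.04 (SE 0.05), given without a test since it rests on the *Hp1α/β* Δ/Δ libraries. This comparison joins loss of *Hp1γ* with Cre treatment and a floxed line, which cannot be told apart. In that comparison 16.0% of 17425 tested genes were called lower. The difference between *Hp1γ* loss in otherwise wild-type cells and in *Hp1α/β*-null cells was not tested.

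**Figure D2:**
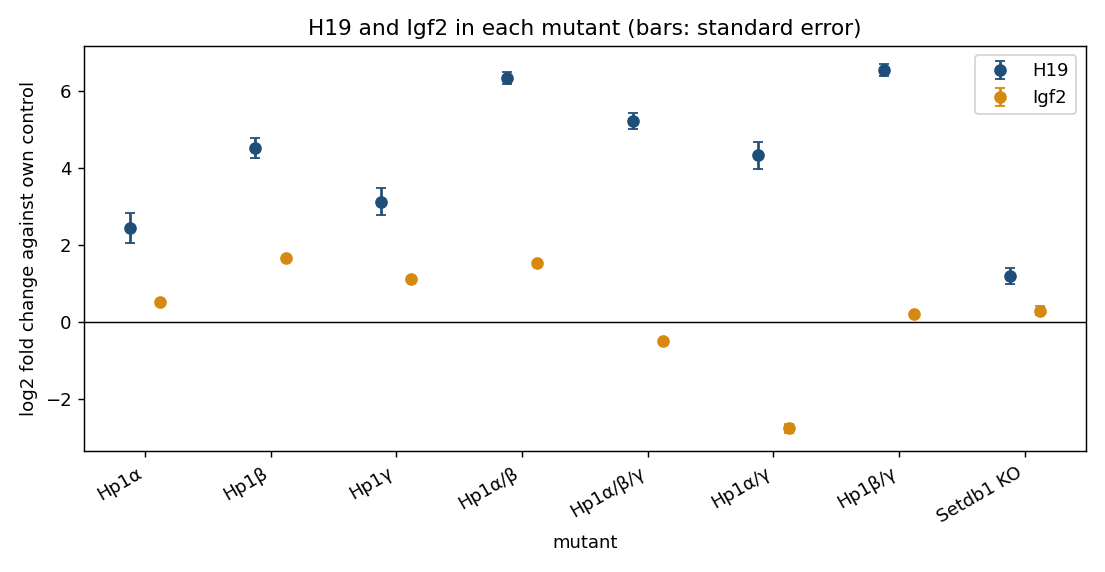
Log2 fold change of *H19* (blue) and *Igf2* (orange) in each mutant against its own control, with bars for the standard error of the fit over 6 libraries. *H19* lies above 0 in all 8 mutants, from 1.19 to 6.54, while *Igf2* runs from -2.78 in *Hp1α/γ* Δ/Δ to 1.66 in *Hp1β* Δ/Δ.

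The *Setdb1* line had another starting point. *Setdb1* F/F cells held 1.35, 1.69 and 1.36 CPM of *H19*, above both wild-type sets, and 5.95, 7.73 and 7.14 CPM of *Igf2*, far below them. Without *Setdb1*, *H19* rose to 3.06, 3.41 and 3.44 CPM, a log2 fold change of 1.19 (SE 0.20, edgeR adjusted p = 4.41e-05). The pattern named when the genes were picked was of *Hp1* mutants only, though earlier results of these data were known. In this comparison 18.5% of 16457 tested genes were called higher, and 40.4% had all mutant libraries above all controls. *Igf2* held 8.39, 7.72 and 8.92 CPM, a log2 fold change of 0.28 (SE 0.12, edgeR adjusted p = 0.0388) that was not called, and its libraries overlapped those of the parent line.

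Ordered by mean CPM, *H19* ran from set A through set B, *Setdb1* F/F, *Hp1α*, *Hp1γ*, *Setdb1* KO, *Hp1β*, *Hp1α/γ*, the triple mutant and *Hp1α/β* to *Hp1β/γ*. Neighbours in that order whose libraries overlapped were the 2 wild-type sets, *Hp1γ* and *Setdb1* KO, and *Hp1α/γ* and the triple mutant. *Igf2* ran from *Setdb1* F/F through *Setdb1* KO, *Hp1α/γ*, the triple mutant, set A, *Hp1α*, set B, *Hp1β/γ*, *Hp1γ* and *Hp1α/β* to *Hp1β*, and of these neighbours only the 2 *Setdb1* conditions overlapped.

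Compared per length, by the authors' TPM values, which scale each gene's reads by transcript length and library size, *Igf2* exceeded *H19* in all 33 libraries, but by very different amounts. For every 100 TPM of *Igf2* the wild-type libraries held from 0.623 to 2.73 TPM of *H19*. *Hp1α* Δ/Δ held 3.21 ± 0.59 (SD, n = 3), *Hp1γ* Δ/Δ 3.62 ± 0.81 and *Hp1β* Δ/Δ 6.04 ± 0.90. The single mutants thus stayed under 7 TPM of *H19* per 100 TPM of *Igf2*.
*Hp1α/β* Δ/Δ cells held 23.5 ± 1.29 TPM of *H19* per 100 TPM of *Igf2*, the triple mutant 44.5 ± 6.66, *Hp1β/γ* Δ/Δ 54.0 ± 2.15 and *Hp1α/γ* Δ/Δ 85.2 ± 5.87. The last of these combined a middling *H19* with the low *Igf2*. *Setdb1* F/F cells already held 24.0 ± 4.78, and *Setdb1* KO cells 44.3 ± 7.52.

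An overlapping gene model complicates the *Igf2* count. *Gm49394* (chr7:142650769-142669942, minus strand) begins upstream of *Igf2* and shares 75.9% of its 4738 exon bases with *Igf2* exons, so reads of the shared part had to be divided between both genes. All 1142 bases that *Gm49394* does not share lie opposite exons of *Igf2os*, an antisense gene, and the use of strand in counting is not given in the sources used here. *Gm49394* and *Igf2os* are therefore both given as uncertain.
*Gm49394* was called higher in 5 of the 7 comparisons that tested it, with log2 fold changes of 2.89 in *Hp1β* Δ/Δ, 1.13 in *Hp1γ* Δ/Δ, 2.83 in *Hp1α/β* Δ/Δ, 4.43 in *Hp1β/γ* Δ/Δ and 2.48 in the triple mutant. In *Hp1β/γ* Δ/Δ *Gm49394* held 762 to 887 reads against 30 to 38 in set B, which was 27.7% ± 2.34 (SD, n = 3) of the summed *Igf2* and *Gm49394* count. In set B it was 1.98% ± 0.25.
With both counts added together, *Igf2* in *Hp1β/γ* Δ/Δ had a log2 fold change of 0.63 in place of 0.19, and still was not called.

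*Igf2os*, which can share reads with *Gm49394* where strand was not used, was called higher in 3 of the 7 comparisons that tested it. Its log2 fold changes there were 2.39 in *Hp1β* Δ/Δ, 1.18 in *Hp1γ* Δ/Δ and 1.48 in the triple mutant. In *Hp1β/γ* Δ/Δ, where *Gm49394* was highest, *Igf2os* had a log2 fold change of -0.15 (SE 0.31, edgeR adjusted p = 0.711).

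Beyond these overlapping genes, most calls near *H19* were for lower levels, many of them in genes with low counts. Of 17 neighbours from *Ctsd* to *Trpm5*, 10 passed the filter in at least one comparison, and the list gave 19 calls over the 8 comparisons, 4 higher and 15 lower. *Igf2os*, given as uncertain, and, in the triple mutant, the lysosomal protease gene *Ctsd* (log2 fold change 1.06) gave the calls for higher levels. *Mrpl23*, the mitochondrial ribosomal protein gene on the other side of *H19*, and *Tssc4* were called in no comparison, with log2 fold changes between -0.81 and 0.57 for *Mrpl23* and between -0.37 and 0.71 for *Tssc4*.
*Tspan32* fell in 4 comparisons, by 1.67 in *Hp1β* Δ/Δ, 1.17 in *Hp1γ* Δ/Δ, 1.47 in *Hp1α/β* Δ/Δ and 1.60 in *Hp1β/γ* Δ/Δ on the log2 scale. *Trpm5*, an ion channel gene, fell in 4 of the 5 comparisons that tested it, by 1.58 to 2.66, all against set A, which stood above set B for this gene with a log2 difference of -1.57 from A to B. *Trpm5* passed the filter through the libraries of set A, so a lower level was the likelier call. *Ascl2*, an imprinted trophoblast transcription factor gene, fell by 1.04 in *Hp1γ* Δ/Δ, 1.77 in *Hp1α/γ* Δ/Δ and 1.27 in *Hp1β/γ* Δ/Δ.
*Th*, the tyrosine hydroxylase gene between *Ins2* and *Ascl2*, fell by 2.47 in *Hp1α/γ* Δ/Δ and 1.81 in *Hp1β/γ* Δ/Δ. *Lsp1* fell by 1.88 in *Hp1α/γ* Δ/Δ, and the tetraspanin gene *Cd81* by 1.28 in the triple mutant. *Th*, *Trpm5*, *Tspan32* and *Lsp1* were low, with means of at most 2.004 CPM in any condition. A gene this low can pass the filter through its control libraries alone, and then a lower level is the likelier call. *Th* was tested in 3 comparisons only. In number these calls were 1 lower of 9 tested neighbours in *Hp1α* Δ/Δ, where 1.56% of all tested genes were called higher and 3.31% lower. *Hp1β* Δ/Δ had 1 higher and 1 lower of 10, beside 2.75% and 6.36% of all tested genes. *Hp1γ* Δ/Δ had 1 higher and 3 lower of 9, beside 2.04% and 3.55%. Among the single mutants *Hp1γ* Δ/Δ thus had the most calls here, though its lower calls included the low genes *Tspan32* and *Trpm5*. In each single mutant the share with a call in either direction was larger than over all tested genes, on 9 or 10 tested neighbours.
*Hp1α/β* Δ/Δ had 2 lower of 9 neighbours, beside 2.96% higher and 5.19% lower over all tested genes. *Hp1α/γ* Δ/Δ had 3 lower of 9, beside 6.75% and 16.3%, and *Hp1β/γ* Δ/Δ 3 lower of 9, beside 7.32% and 4.54%. The triple mutant had 2 higher and 2 lower of 9, beside 25.1% and 17.1%. *Setdb1* KO had 0 calls of 6 by edgeR, beside 18.5% and 11.4% of all tested genes, where 3 of the 6 had an unadjusted p under 0.05 and DESeq2 called 0.

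**Figure D3:**
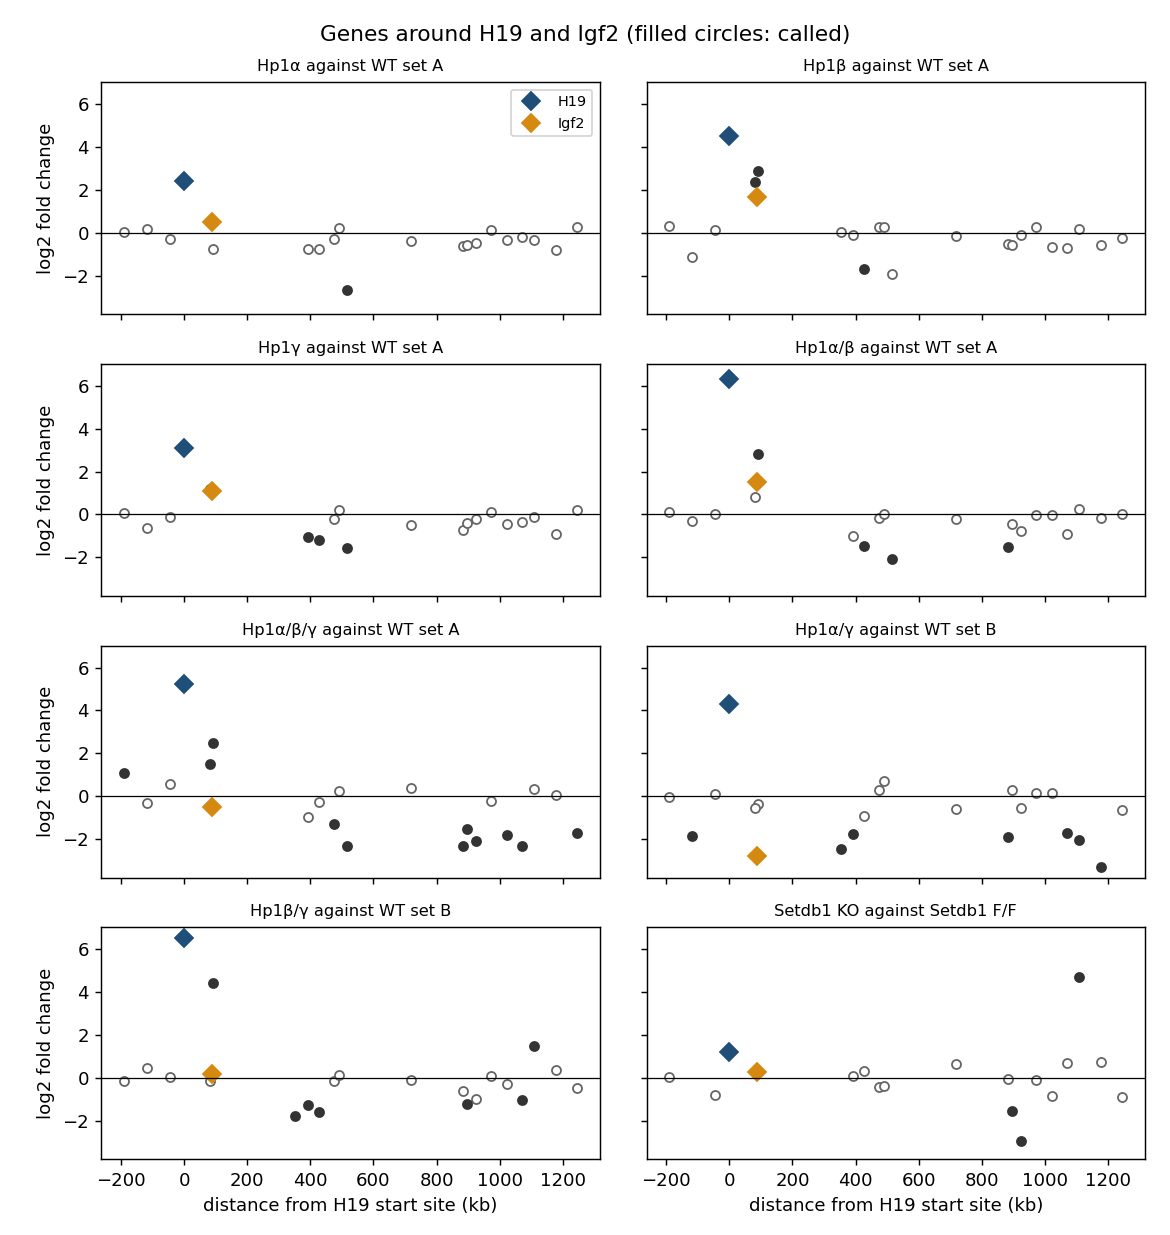
Log2 fold change of each tested gene from *Ctsd* to *Dhcr7* in 8 comparisons, by the distance of its start site from that of *H19* in kb, with *H19* (blue) and *Igf2* (orange) as diamonds and other genes as circles, filled where called. In the *Hp1* mutants *H19* stands at or above 2.43, the filled circles close to *Igf2* are *Gm49394* and *Igf2os*, and most filled circles further out lie below 0.

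Calls in the *Kcnq1* domain, the next imprinted cluster along the chromosome, were mostly lower in the triple mutant and in *Hp1α/γ* Δ/Δ and were few in the other comparisons. Of its 11 listed genes 10 were tested, and the list gave 17 calls. No call was made by edgeR in the 3 single mutants, where 24 of 30 tests had an unadjusted p under 0.05 and DESeq2 made 1 call. In the triple mutant 6 of 10 fell, where 17.1% of all tested genes were called lower, with a median log2 fold change of -1.63 beside 0.04 over all tested genes, and in *Hp1α/γ* Δ/Δ 4 of 10 fell, where 16.3% of all tested genes were called lower, with a median of -0.62 beside -0.02. *Hp1β/γ* Δ/Δ and *Setdb1* KO each had 1 higher and 2 lower of 10, with medians of -0.38 and -0.08. Of all tested genes 7.32% were called higher and 4.54% lower in *Hp1β/γ* Δ/Δ, and 18.5% and 11.4% in *Setdb1* KO.
*Cdkn1c*, the maternally expressed inhibitor of cell cycle kinases, fell by 1.52 in *Hp1α/β* Δ/Δ, 1.89 in *Hp1α/γ* Δ/Δ and 2.34 in the triple mutant. *Slc22a18* fell by 1.23 in *Hp1β/γ* Δ/Δ, 1.53 in the triple mutant and 1.58 in *Setdb1* KO. The decoy receptor gene *Tnfrsf22* fell by 1.71 in *Hp1α/γ* Δ/Δ, 1.05 in *Hp1β/γ* Δ/Δ and 2.31 in the triple mutant. Its neighbour *Tnfrsf23* fell by 2.04 in *Hp1α/γ* Δ/Δ but rose by 1.49 in *Hp1β/γ* Δ/Δ and by 4.69 in *Setdb1* KO.

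*Igf2* was the one expressed ligand of its family. *Ins1* and *Ins2* were at 0 in 33 of 33 libraries, and a count of 0 allows up to 3 reads in each. *Igf1* passed the filter in no comparison. IGF2 signals through the IGF1 and insulin receptors and is cleared by the receptor encoded by *Igf2r*. Of the 8 receptor and substrate genes 7 were tested, with 15 calls. In *Hp1α/γ* Δ/Δ, where *Igf2* was low, 5 of 7 fell, beside 16.3% of all tested genes, with a median log2 fold change of -1.87 beside -0.02. The triple mutant had 3 higher and 1 lower of 7 (beside 25.1% and 17.1% of all tested genes), *Setdb1* KO 2 higher and 1 lower (18.5% and 11.4%), *Hp1β/γ* Δ/Δ 1 of each (7.32% and 4.54%) and *Hp1β* Δ/Δ 1 lower (6.36%).
*Irs1*, a substrate of both receptors, fell by 3.47 in *Hp1α/γ* Δ/Δ and 1.28 in *Hp1β* Δ/Δ and rose by 1.45 in *Setdb1* KO. *Irs2* fell by 1.64 in *Hp1α/γ* Δ/Δ and rose by 1.17 in *Hp1β/γ* Δ/Δ and by 1.14 in the triple mutant. *Irs4* fell by 2.37 in *Hp1α/γ* Δ/Δ and rose by 1.38 in the triple mutant and by 2.20 in *Setdb1* KO. *Grb10*, an imprinted adaptor that dampens the receptors, fell by 1.42 in *Hp1β/γ* Δ/Δ, 1.90 in the triple mutant and 1.94 in *Setdb1* KO.
The genes for secreted IGF binding proteins gave 11 calls. These were 3 lower of 7 in *Hp1α/γ* Δ/Δ (16.3% of all tested genes were lower), 2 higher of 6 in *Hp1β/γ* Δ/Δ (7.32% were higher), 2 lower of 7 in the triple mutant (17.1%), and 3 higher and 1 lower of 5 in *Setdb1* KO (18.5% and 11.4%). *Igfbp3* fell by 1.09 in *Hp1α/γ* Δ/Δ and rose by 1.67 in *Hp1β/γ* Δ/Δ and by 2.57 in *Setdb1* KO. *Igfbp6*, whose protein prefers IGF2 to IGF1, fell by 1.85 in *Hp1α/γ* Δ/Δ and rose by 1.43 in *Hp1β/γ* Δ/Δ and by 2.02 in *Setdb1* KO. *Igfbp4* fell by 2.27 in *Hp1α/γ* Δ/Δ and 2.18 in the triple mutant and rose by 1.37 in *Setdb1* KO.
Genes for receptors and substrates were not called in *Hp1α* Δ/Δ, *Hp1γ* Δ/Δ or *Hp1α/β* Δ/Δ, the last of which held one of the highest levels of *Igf2*, although 16 of these 21 edgeR tests had an unadjusted p under 0.05 (DESeq2 made 0 calls). Binding protein genes were not called in these mutants or in *Hp1β* Δ/Δ, where 16 of 26 edgeR tests had an unadjusted p under 0.05 and DESeq2 made 2 calls. Of the 3 genes for proteins that bind *Igf2* mRNA, *Igf2bp2* alone was called, with a fall of 1.81 in the triple mutant, where 17.1% of all tested genes were called lower.

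Another list held genes for factors that keep, remove or read imprints. In 3 of the 4 comparisons with calls they were called in about the share of all tested genes, or in a smaller one. Of 19 such genes, 18 were tested in each single mutant and in *Hp1α/β* Δ/Δ and 0 were called there by edgeR, although 56 of these 72 tests had an unadjusted p under 0.05 (DESeq2 also made 0 calls). *Hp1β/γ* Δ/Δ had 1 lower of 19, beside 7.32% of all tested genes called higher and 4.54% lower. The triple mutant had 4 higher and 4 lower of 19, beside 25.1% and 17.1%, and *Setdb1* KO 3 higher and 1 lower of 19, beside 18.5% and 11.4%. *Hp1α/γ* Δ/Δ had 3 higher and 3 lower of 18, beside 6.75% and 16.3%. *Zfp57*, which encodes a zinc finger protein that holds methylation at imprinted control regions, rose by 1.25 in *Hp1α/γ* Δ/Δ and fell by 1.91 in the triple mutant and by 1.25 in *Setdb1* KO. The log2 fold changes of *Ctcf* over the 8 comparisons lay between -0.20 and 0.44, all under the fold threshold.

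For other genes that, like *H19*, are known to be expressed from the maternal chromosome, nearly all calls were lower, and most of these came from 4 of the 8 comparisons. Of 12 such genes, some of which are also neighbours or members of the *Kcnq1* domain, 11 were tested, and of 27 calls 26 were lower and 1 was higher, that of *Igf2r* in the triple mutant (log2 fold change 1.64). The triple mutant had 8 of 11 lower, where 17.1% of all tested genes were, and *Setdb1* KO 7 of 11, where 11.4% were. *Hp1α/γ* Δ/Δ had 5 of 11 lower, beside 16.3%, and *Hp1β/γ* Δ/Δ 4 of 11, beside 4.54%. *Hp1γ* Δ/Δ and *Hp1α/β* Δ/Δ each had 1 of 11 lower, beside 3.55% and 5.19%. *Hp1α* Δ/Δ and *Hp1β* Δ/Δ had 0 calls of 11, beside 3.31% and 6.36% of all tested genes called lower. In these 2 comparisons 18 of 22 edgeR tests had an unadjusted p under 0.05 and DESeq2 made 1 call. *Meg3*, *Rian* and *Zim1* fell in *Hp1α/γ* Δ/Δ, the triple mutant and *Setdb1* KO. *Meg3*, the non-coding RNA of another imprinted domain, fell by 1.05, 2.69 and 1.19 in these, and *Rian*, from the same domain, by 1.31, 2.91 and 1.78. *Zim1* fell by 2.18, 1.48 and 1.07, and by 1.18 in *Hp1β/γ* Δ/Δ.
The 18 paternally expressed genes, each tested in at least one comparison, gave 29 calls, 9 higher and 20 lower. In the triple mutant 2 of 18 were higher and 5 lower, beside 25.1% and 17.1% of all tested genes. *Setdb1* KO had 1 higher and 3 lower of 17, beside 18.5% and 11.4%, *Hp1β/γ* Δ/Δ 2 higher and 4 lower of 18, beside 7.32% and 4.54%, and *Hp1α/γ* Δ/Δ 1 higher and 7 lower of 17, beside 6.75% and 16.3%. The other comparisons held at most 2 calls each. *Airn*, the non-coding RNA across the *Igf2r* locus, was called higher by 2.03 in *Hp1β* Δ/Δ, 2.61 in *Hp1α/β* Δ/Δ, 1.44 in *Hp1β/γ* Δ/Δ and 5.08 in the triple mutant. It passed the filter in these comparisons only, through the mutant libraries, so a call for lower levels could not arise and nothing is read from where it was tested. *Airn* overlaps *Igf2r* on the other strand, so both counts can share reads where strand was not used. *Dio3* rose by 1.29 in *Hp1α/γ* Δ/Δ, 2.11 in *Hp1β/γ* Δ/Δ and 1.36 in the triple mutant. *Nnat* fell by 2.87, 2.60 and 2.04 in these 3 mutants, and *Peg3* fell by 2.34 in *Hp1α/γ* Δ/Δ and 1.01 in the triple mutant and only just passed the fold threshold, as lower, in *Hp1β/γ* Δ/Δ.

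**Figure D4:**
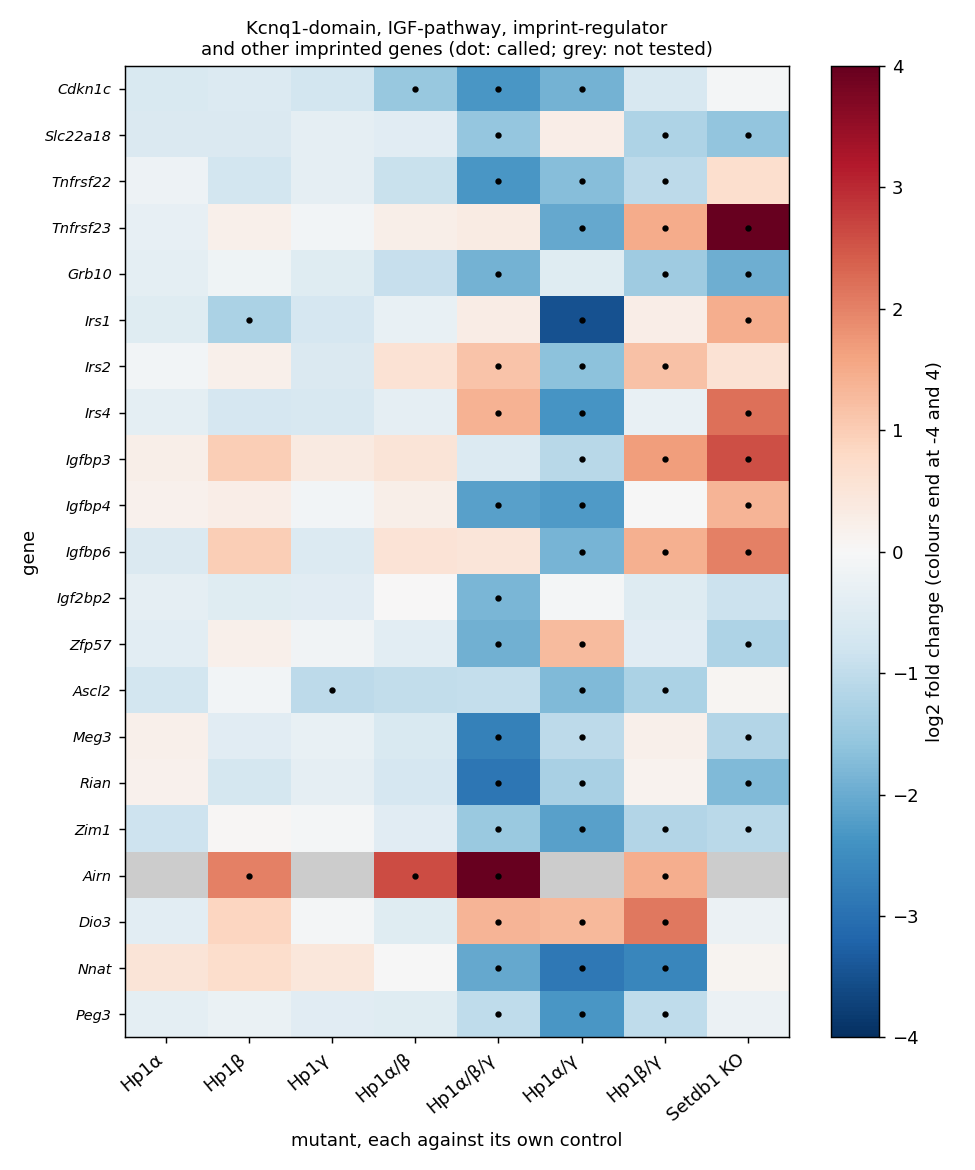
Log2 fold changes of 21 genes of the *Kcnq1* domain, the IGF pathway, the imprint factors and other imprinted genes in 8 comparisons, from blue (lower) to red (higher), with a dot where the gene was called and grey where it was not tested. The *Hp1α/γ* column is mostly blue, and *Airn* is grey in the 4 columns where it did not pass the filter.

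Over the 27 libraries of the *Hp1* mutants and both wild-type sets, the gene whose log2(CPM + 1) was most like that of *H19* was *Nefm*, a neurofilament gene (Pearson r = 0.95), followed by *Gm21321*, *Cyp2b23*, *Atp2b4* and *Cnga3* (r = 0.912 to 0.925). *Nefm* had a mean of 2.21 CPM in set A, 17.5 in *Hp1β* Δ/Δ and 76.1 in *Hp1β/γ* Δ/Δ. Among the genes most like *Igf2* were *Dsc2*, *Acta2*, *Tob1* and *Ece1* (r = 0.901 to 0.909). *H19* and *Igf2* had an r of 0.07 with each other. These libraries come in groups of 3 from the same condition and share library preparation, so the values are descriptive.

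Both genes are known to be active in embryonic fibroblasts, the cell type of the feeders, and in bulk RNA a change in the number of such cells and a change per cell cannot be told apart. The 15 feeder fibroblast markers summed to between 56.4 and 61.0 CPM in set A and between 79.3 and 93.6 in set B. They were lowest in *Hp1α/γ* Δ/Δ (30.03 to 36.3), the triple mutant (38.8 to 42.2) and the *Setdb1* lines (30.7 to 33.9 in F/F and 31.1 to 33.1 in KO), and higher in *Hp1β* Δ/Δ (62.4 to 71.7), *Hp1γ* Δ/Δ (66.5 to 74.0), *Hp1α/β* Δ/Δ (75.6 to 83.4) and *Hp1β/γ* Δ/Δ (94.5 to 99.0). *Hp1α* Δ/Δ lay at 59.7 to 62.1. Between 4 and 9 of the 15 had a mean of at least 1 CPM in a condition.
*Igf2* was thus below its control in the 2 *Hp1* mutants whose feeder markers were below theirs. *Acta2*, a marker on that list, is among the 5 genes most like *Igf2*. In *Hp1α/γ* Δ/Δ 9 of 11 tested markers were called lower and 1 higher, beside 16.3% and 6.75% of all tested genes. Log2 fold changes there were -5.33 for *Col1a2* and 2.96 for *Col6a3*. In the triple mutant 3 of 11 were called lower and 1 higher, beside 17.1% and 25.1%. *Hp1α* Δ/Δ had 1 higher of 12 (1.56%), and *Hp1β* Δ/Δ 1 higher and 1 lower of 11 (2.75% and 6.36%). *Hp1γ* Δ/Δ had 4 higher and 1 lower of 11 (2.04% and 3.55%). *Hp1α/β* Δ/Δ had 5 higher and 2 lower of 12 (2.96% and 5.19%), and *Hp1β/γ* Δ/Δ 2 higher and 1 lower of 12 (7.32% and 4.54%). *Col1a1* was among the markers with high levels, at 16.7 to 18.8 CPM in *Hp1β* Δ/Δ, while *Lum* and *Prrx1* were at most 0.23 CPM on average in any condition. *H19* was above its control by 4.32 in *Hp1α/γ* Δ/Δ and by 5.22 in the triple mutant on the log2 scale. The part of feeder cells in the *H19* and *Igf2* values was not tested.
Trophoblast and extraembryonic endoderm are other tissues in which both genes are known to be active. The 8 trophoblast markers summed to 39.4 to 42.8 CPM in set A and 61.4 to 66.7 in set B. They summed to more in *Hp1α* Δ/Δ (111.9 to 119.2), *Hp1β* Δ/Δ (97.6 to 109), *Hp1γ* Δ/Δ (121.8 to 124), *Hp1α/β* Δ/Δ (169 to 181), *Hp1β/γ* Δ/Δ (81.4 to 83.4) and the triple mutant (68.0 to 75.4), and to less in *Hp1α/γ* Δ/Δ (40.5 to 46.1). In *Hp1β* Δ/Δ 5 of 5 tested markers were called higher and in *Hp1α/β* Δ/Δ 4 of 4, beside 2.75% and 2.96% of all tested genes. In *Hp1α* Δ/Δ, against the same set A, 3 were tested, so further markers passed the filter through the mutant libraries. *Hp1α* and *Hp1γ* Δ/Δ had 1 higher of 3 each (1.56% and 2.04%), *Hp1β/γ* Δ/Δ 2 of 5 (7.32%) and the triple mutant 3 of 5 (25.1%). *Hp1α/γ* Δ/Δ had 2 lower of 3 (16.3%). In the *Setdb1* lines the trophoblast markers summed to 64.6 to 67.3 CPM in F/F and 55.8 to 60.0 in KO, with 1 lower of 2 (11.4%). *Hand1*, a trophoblast and mesoderm transcription factor gene on that list, rose in the *Hp1β*, *Hp1α/β*, *Hp1β/γ* and triple mutants, by 2.30, 1.71, 1.84 and 1.09, and fell by 1.88 in *Hp1α/γ* Δ/Δ. The defining markers *Tpbpa* and *Prl3d1* stayed at or under 0.017 CPM on average.
The 12 endoderm markers, of which *Afp* was at most 0.11 CPM, summed to 167.6 to 176 CPM in set A, and beside it to 105.8 to 109.8 in *Hp1α* Δ/Δ, 171 to 188 in *Hp1β* Δ/Δ, 124.2 to 128 in *Hp1γ* Δ/Δ, 85.2 to 90.2 in *Hp1α/β* Δ/Δ and 61.3 to 66.4 in the triple mutant. They summed to 124.7 to 136.6 in set B, 101.7 to 184.5 in *Hp1α/γ* Δ/Δ and 38.3 to 39.8 in *Hp1β/γ* Δ/Δ. In the *Setdb1* lines they summed to 219.4 to 223.7 in F/F and 35.7 to 39.0 in KO. In the triple mutant 4 of 8 tested endoderm markers were called higher and 1 lower although their sum was below set A. Of all tested genes 25.1% were called higher and 17.1% lower there. The other comparisons with set A tested 7 of these markers, so a further one passed the filter through the triple-mutant libraries. *Hp1α* Δ/Δ had 1 lower (3.31%), and *Hp1β* Δ/Δ and *Hp1γ* Δ/Δ 1 of each (2.75% and 6.36%, 2.04% and 3.55%). *Hp1α/β* Δ/Δ had 1 higher and 4 lower (2.96% and 5.19%). *Hp1α/γ* Δ/Δ had 1 higher and 2 lower of 6 (6.75% and 16.3%), and *Hp1β/γ* Δ/Δ 2 lower of 6 (4.54%). *Setdb1* KO had 1 higher and 6 lower of 9 (18.5% and 11.4%). The part of these cell types in the *H19* and *Igf2* values was not tested. The 8 ESC markers were present in every condition and lowest in the triple mutant (1242 to 1281 CPM, against 2541 to 2547 in set A). In *Hp1α/γ* Δ/Δ they summed to 4323 to 6264 CPM, against 2389 to 2469 in set B. There 5 of 8 were called higher, beside 6.75% of all tested genes.

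**Figure D5:**
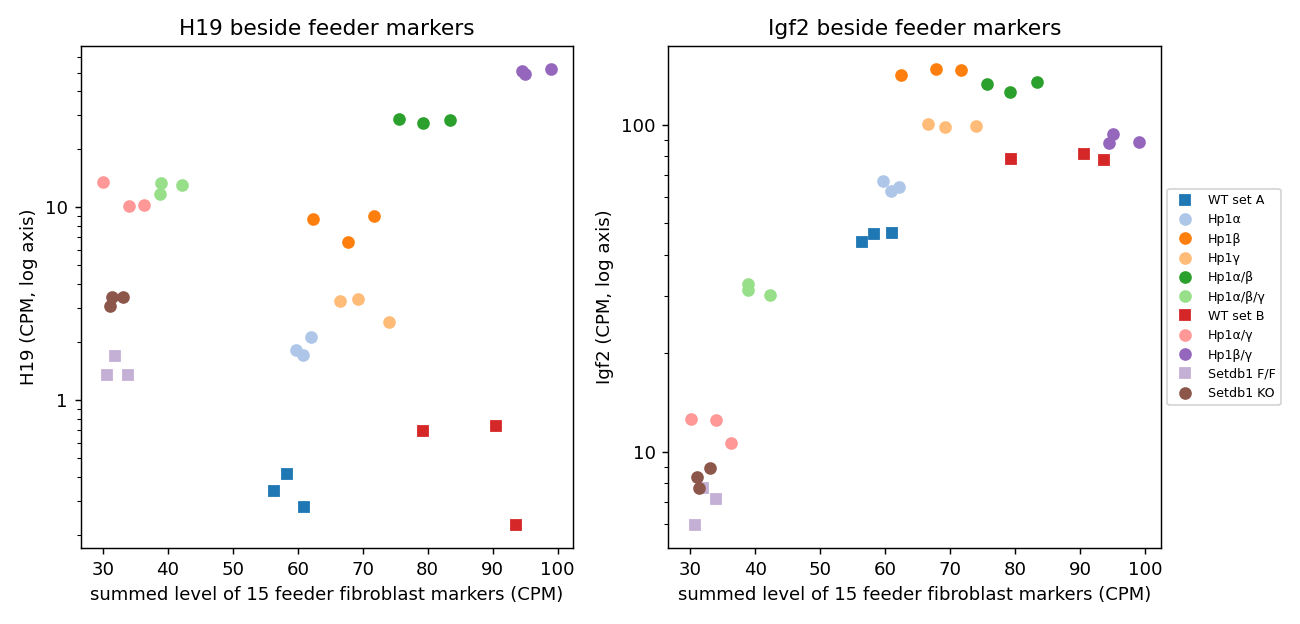
*H19* (left) and *Igf2* (right) in CPM on log axes against the summed CPM of 15 feeder fibroblast markers, one point per library, with controls as squares and mutants as circles. *Igf2* is lowest where the markers sum to under 43 CPM, and *H19* reaches 10.2 to 13.5 CPM in *Hp1α/γ* Δ/Δ at marker sums of 30.03 to 36.3.

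The targeted genes were checked against the labels. *Cbx5* (HP1α) was called lower in *Hp1α*, *Hp1α/β* and *Hp1α/γ* mutants, *Cbx1* (HP1β) in *Hp1β*, *Hp1α/β*, *Hp1β/γ* and triple mutants, and *Cbx3* (HP1γ) in *Hp1γ*, *Hp1α/γ*, *Hp1β/γ* and triple mutants. *Cbx5* in the triple mutant and *Setdb1* in *Setdb1* KO had log2 fold changes of -0.81 and -0.93 that missed the fold threshold, and reads outside a deleted part still count for a gene. Libraries held 17330936 to 25743149 counts. *Hp1α/γ* Δ/Δ replicate 2 stood apart from its mates (Pearson r of 0.970 and 0.972, against 0.993 to 0.997 for the other replicate pairs). Without it the log2 fold changes in *Hp1α/γ* Δ/Δ were 4.22 for *H19* and -2.78 for *Igf2*, and of the genes named here *Meg3* and *Dio3* lost their calls while *Tspan32* gained one.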

How the data were processed

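RNA-seq of 33 libraries in 11 conditions was analysed from 8 deposited tables. Per the labels, the authors aligned reads with TopHat2 (version 2.1.1) to GRCm38.p5 and estimated expected counts per gene with RSEM, and these expected counts were deposited without normalization. The deposited TPM values were scaled by the authors for transcript length and library size. The use of strand in counting is not given in the sources used here. Control libraries that recur in several tables were identical in all 30 repeated columns and were counted once.

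Expected counts, of which 87.1% were whole, were rounded and each mutant was compared with its own control in edgeR 4.0.16 (R 4.3.3), with filterByExpr (minimum count 10), TMM scaling and the quasi-likelihood test on the 6 libraries. P-values were adjusted by Benjamini-Hochberg over all tested genes, and a gene was called at an adjusted p under 0.05 and a log2 fold change over 1 in size. CPM levels were scaled by TMM over all 33 libraries. Fold changes of *H19* and *Igf2* that had a part in choosing them are given without p. The fit was tested on simulated counts.

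*H19*, *Igf2* and the gene lists were chosen with earlier results of these data known. The text names all neighbours that passed the filter, the members of other lists called in at least 3 of 8 comparisons (or the one with the largest called change), the 5 genes most like *H19* and *Igf2* in log2(CPM + 1) among genes with a mean of at least 1 CPM, and the targeted genes. One gene that this rule names is not reported here. *Ctcf*, *Igf2r*, *Gm49394*, *Igf1* and the marker genes were named outside this rule, after their values were seen. Alternatives were RLE scaling, DESeq2 1.42.0, no filter, a joint fit, the swapped wild-type set, blocking on replicate number, and leaving out each library.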

Additional observations from a re-analysis of the deposited data

Results flagged for a closer look

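*Igf2* differed from its control in opposite directions between *Hp1* mutants, while *H19* did not. Every library of *Hp1α* Δ/Δ (log2 fold change 0.51), *Hp1β* Δ/Δ (1.66), *Hp1γ* Δ/Δ (1.12), *Hp1β/γ* Δ/Δ (0.19) and *Hp1α/β* Δ/Δ (1.53) lay above every library of its control set, and every library of *Hp1α/γ* Δ/Δ (-2.78) and of the triple mutant (-0.50) lay below. The difference between these mutants was not tested. Against the other wild-type set *Hp1α* Δ/Δ changed sides, to -0.29.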

How the results depend on the processing

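The choice of wild-type set mattered most. Against set B, *H19* had a log2 fold change of 1.78 in *Hp1α*, 3.87 in *Hp1β*, 2.48 in *Hp1γ*, 5.68 in *Hp1α/β* and 4.58 in the triple mutant. *Igf2* against set B was -0.29 in *Hp1α* (a change of sign), 0.87 in *Hp1β*, 0.33 in *Hp1γ* (call lost), 0.73 in *Hp1α/β* and -1.29 in the triple mutant (call gained), and against set A -1.97 in *Hp1α/γ* and 0.99 in *Hp1β/γ* (from 0.19, not called in either). *H19* against set A was 4.98 in *Hp1α/γ* and 7.19 in *Hp1β/γ*. These shifts follow from the control levels, with a higher *Igf2* in set B and a mean *H19* of 0.549 CPM in set B against 0.345 in set A. For *H19* the libraries of the sets overlapped. Why the sets differ was not tested. Counting *Igf2* with *Gm49394*, an alternative chosen after seeing the data, gave -2.66 in *Hp1α/γ*. Leaving out single libraries changed no call of *H19* or *Igf2*; *H19* in *Setdb1* KO ran from 1.11 to 1.29 and *Igf2* in *Hp1γ* from 1.09 to 1.13. Without the fold threshold, calls were 39 for neighbours (19 with it), 56 for the *Kcnq1* domain (17), 43 for receptors and substrates (15), 30 for binding proteins (11), 19 for *Igf2* mRNA binding proteins (1), 109 for imprint factors (19), 68 for maternally expressed genes (27) and 93 for paternally expressed genes (29). The 3 other IGF ligands had no test in edgeR with the filter, and 1 call each under DESeq2, without the filter and in the joint fit. *Igf2* mRNA binding proteins had 2 calls against the other wild-type set. Same-numbered libraries did not deviate together (r from -0.057 to 0.089), and a fit with the replicate number as a block gave 1.18 for *H19* in *Setdb1* KO, 768 calls over all genes in *Hp1α* (772 without) and 7284 in the triple mutant (7400). The low *H19* counts of wild-type cells, 5 to 16 reads, limit the precision of every *H19* fold change.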
